A study of Mus musculus with 16 samples.

Results

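The matrix metalloproteinases *Mmp2*, *Mmp3*, *Mmp9*, *Mmp10*, *Mmp12*, *Mmp13* and *Mmp14* and the tissue inhibitors of metalloproteinases *Timp1*, *Timp2* and *Timp3* were examined in whole dorsal skin. These 10 genes were taken by name as members of both families, by a rule that used no measured value but with earlier results of these data known, and they are 10 of the 55359 genes counted. Bulk mRNA sequencing was performed on skin from wild-type C57Bl/6N mice (C57Bl/6 in the labels) at 8 weeks of age. The paper gives telogen, the resting stage of hair follicles, for its melanocyte migration experiments, and the stage of these samples was not checked. Males and females received 3 exposures to ultraviolet B (UVB) or none, and irradiated skin was taken 6 h after the last exposure. Each of the 4 groups, UVB-irradiated males, non-irradiated males, UVB-irradiated females and non-irradiated females, held 4 samples, each from its own mouse. The labels name no transgene or deletion in any group.

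Metalloproteinases are zinc-dependent enzymes that cut proteins of the extracellular matrix, and most are secreted as inactive precursors that other proteases must cleave. Tissue inhibitors bind the active site of the mature enzymes, and the balance of enzyme and inhibitor sets how much matrix is cut. In skin, ultraviolet light is known to induce collagenase and stromelysin genes through the AP-1 transcription factor (dimers of Fos and Jun proteins), and the resulting loss of collagen is a mark of photoaged dermis.

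*Mmp13*, *Mmp12*, *Mmp3* and *Mmp10* lie beside each other on chromosome 9, together with *Mmp1a* and *Mmp1b*, in 237.728 kb of GRCm39 (chr9:7272514-7510241). The bases before an annotated start of each of these 4 genes are shown because they hold the AP-1 motif while the transcripts differed in level. Those of *Timp1* are shown because it had the highest log2 fold change after UVB among the 9 members tested. The *Mmp12* start shown (7347374) lies downstream of another annotated start (7344397) that holds no motif. Sequences are from RefSeq on GRCm38.p6, the 120 bases before the start site, 5′ to 3′ on the plus strand, with the AP-1 motif (TGAGTCA, or TGACTCA on the other strand) and TATAAA in capitals:
Mmp13: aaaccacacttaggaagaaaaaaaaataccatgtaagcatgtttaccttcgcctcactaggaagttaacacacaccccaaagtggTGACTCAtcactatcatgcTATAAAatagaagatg
Mmp12, start with a match: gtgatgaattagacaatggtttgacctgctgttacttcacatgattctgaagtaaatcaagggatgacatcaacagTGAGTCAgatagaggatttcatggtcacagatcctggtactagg
Mmp3: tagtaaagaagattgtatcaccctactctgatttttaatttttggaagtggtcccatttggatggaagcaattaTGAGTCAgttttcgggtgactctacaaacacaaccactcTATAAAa
Mmp10: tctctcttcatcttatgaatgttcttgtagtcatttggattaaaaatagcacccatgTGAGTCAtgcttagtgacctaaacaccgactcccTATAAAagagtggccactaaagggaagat
Timp1: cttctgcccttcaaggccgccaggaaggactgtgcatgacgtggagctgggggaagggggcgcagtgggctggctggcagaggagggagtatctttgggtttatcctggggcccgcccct

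The stretches span chr9:7272394-7272513 for *Mmp13*, chr9:7347254-7347373 for *Mmp12*, chr9:7445702-7445821 for *Mmp3*, chr9:7502222-7502341 for *Mmp10* and chrX:20870046-20870165 for *Timp1*. The first base of the AP-1 motif stood at -35 in *Mmp13*, -44 in *Mmp12*, -46 in *Mmp3* and -63 in *Mmp10*, counted from the start site. Of the 32851 promoters in the RefSeq table, 4.46% held the AP-1 motif within 250 bases before the start, searched on both strands, and 7.59% held TATAAA, searched on the gene's own strand only. TATAAA was found before *Mmp13*, *Mmp3* and *Mmp10*. Neither motif was found in that window before *Timp1*, *Timp2*, *Timp3*, *Mmp14* or the upstream annotated start of *Mmp12*, which says only that these letters are not there. Promoters were matched for 8 of the 10 members, all but *Mmp2* and *Mmp9*. A match of letters is a description of the sequence and not a measured binding site.

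Reads assigned to genes numbered 16495776 to 33404831 per sample, with a median of 21767339. Libraries were directional, and the strand not counted here held 3.63 to 4.23% of the gene reads. Among the members that share was under 1% for all but *Mmp10*, where it was 5.26% on 36 counted reads. *Timp1* lies within *Syn1* and *Timp3* within *Syn3*, both on the opposite strand, where *Syn1* averaged 0.572 to 1.07 CPM (counts scaled to the size of each library) and *Syn3* 1.10 to 3.10 in the 4 groups. *Timp2* shares 10197 bases of its span with *Cep295nl* on the same strand, which averaged 2.15 to 2.86 CPM. The tissue label was checked against markers, and those of keratinocytes and of fibroblasts were read in every sample, with summed levels of at least 9884 and 10315 CPM.

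To compare levels between genes, CPM was divided by the length of the canonical transcript. *Timp2*, the inhibitor that also helps MMP14 activate pro-MMP2, ranked first in all 16 samples, at 326 ± 20.6 CPM per kb in non-irradiated males and 222 ± 32.9 in non-irradiated females (mean ± SD, n = 4). *Mmp2* (gelatinase A), *Timp3*, *Mmp14* and *Mmp3* followed in every sample, in an order that differed between samples, and *Timp1*, *Mmp9* and *Mmp12* lay below them. In non-irradiated males *Mmp2* stood at 232 ± 28.6 CPM per kb, and *Mmp14* at 113 ± 8.19 and *Timp3* at 111 ± 1.04 did not differ beyond their spread. *Mmp3* stood at 92.8 ± 15.1 CPM per kb, its highest sample at 109.3 just below the lowest *Timp3* sample at 109.5. *Mmp9* at 7.82 ± 1.30, *Timp1* at 5.44 ± 0.809 and *Mmp12* at 2.49 ± 1.24 CPM per kb came next in these males. After UVB the order of the first pair turned in males, with *Timp1* at 15.6 ± 1.91 and *Mmp9* at 2.61 ± 0.241 CPM per kb. *Mmp13* ranked ninth at 0.180 ± 0.126 CPM per kb and *Mmp10* last at 0.0146 ± 0.0172. *Mmp3* in non-irradiated females was at 24.8 ± 1.61 CPM per kb. With all exon bases as the length, an alternative chosen after seeing the data, *Mmp14* was at 51.2 and *Timp3* at 64.4 CPM per kb in non-irradiated males, both below *Mmp3* at 92.8.

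**Figure D1:**
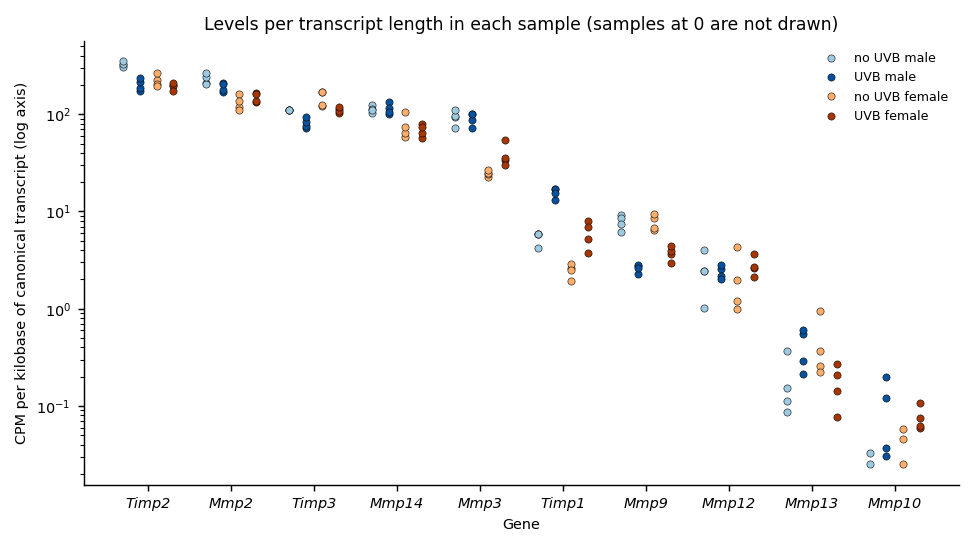
Each point is 1 sample, with the CPM per kb of canonical transcript on a log axis and the genes ordered by their median. *Timp2* is at the top in every sample, and *Mmp13* and *Mmp10* lie below 1 CPM per kb.

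After UVB, *Timp1* rose and *Mmp9* fell in both sexes, while *Mmp14* and *Mmp12* did not pass the test in either sex. In males, 6 of the 9 members tested passed an adjusted p of 0.1: *Timp1* and *Mmp13* were higher and *Mmp9*, *Timp2*, *Timp3* and *Mmp2* lower. So many genes moved in males that 29.0% of all genes tested were higher and 30.5% lower by this rule, so 6 of 9 is close to that background and is no result about these genes. In females, 4 of 9 passed, *Timp1* and *Mmp3* higher and *Mmp9* and *Timp3* lower, where 12.8% of genes were higher and 10.6% lower. With an absolute log2 fold change over 1 required as well, *Timp1*, *Mmp13* and *Mmp9* were called in males, where 4.08% of genes were called higher and 3.31% lower, and *Timp1* and *Mmp9* in females, where 1.63% were called higher and 1.08% lower. The median log2 fold change (log2FC) of UVB against no UVB over the 9 members was -0.03 in males and -0.12 in females, against -0.02 and 0.00 over all genes tested. *Mmp10* had too few reads for the test.

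**Figure D2:**
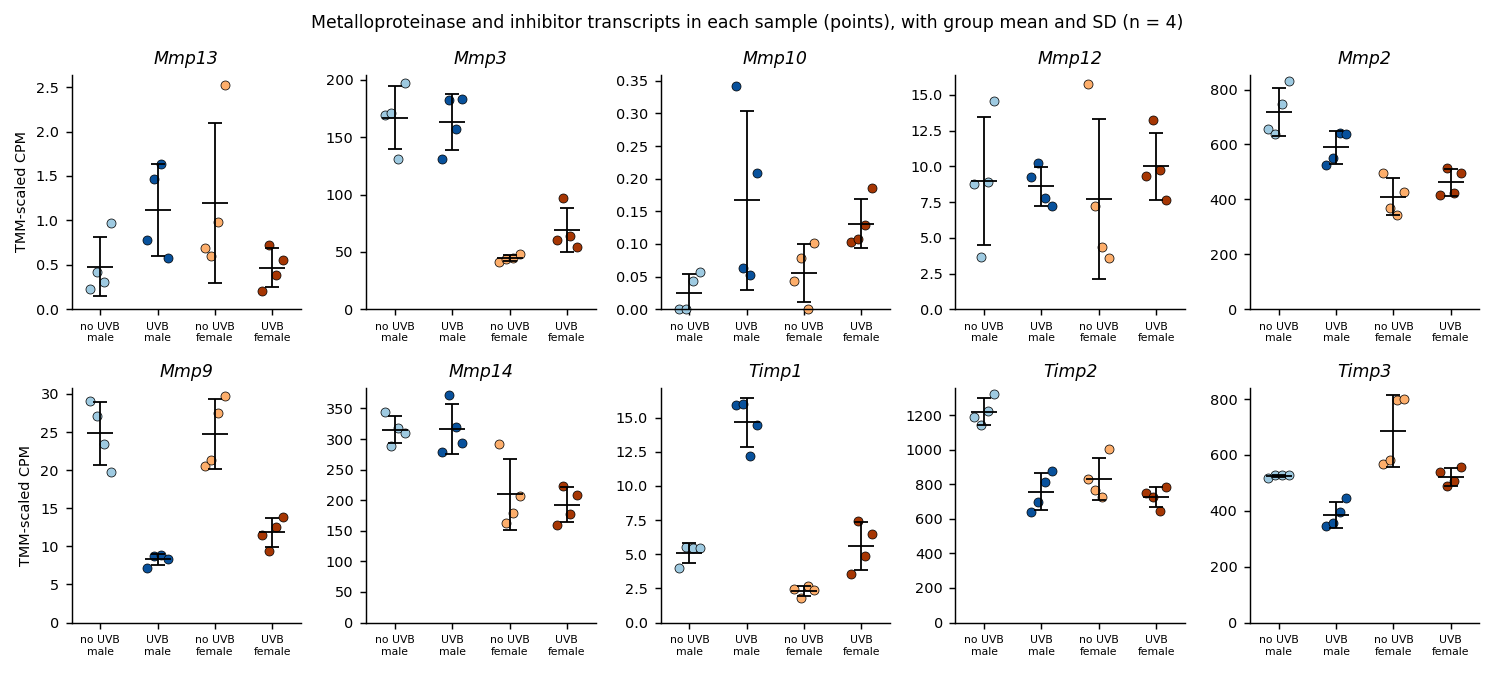
CPM of each member on an axis from 0, with 1 point per sample and the mean and SD of each group of 4. *Mmp9* is lower and *Timp1* higher in all UVB-irradiated samples than in all non-irradiated samples of the same sex, whereas *Mmp12* and *Mmp14* overlap within each sex.

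*Mmp9* encodes gelatinase B, which cuts denatured collagen and basement membrane collagen IV (GRCm39 chr2:164780439-164797771). In males it stood at 29.1, 27.1, 23.4 and 19.8 CPM without UVB and at 7.19, 8.67, 8.92 and 8.33 CPM after UVB. In females it was 20.5, 21.3, 27.5 and 29.7 CPM without UVB and 11.5, 9.37, 12.6 and 13.9 CPM after UVB. Every irradiated sample lay below every non-irradiated sample of its sex, and the non-irradiated sexes had nearly the same range. *Mmp9* fell to 0.336 of its level in males, a log2FC of -1.57 (standard error, SE, 0.127, adjusted p in edgeR = 3.81e-06). In females it fell to 0.480, a log2FC of -1.06 (0.153, adjusted p in edgeR = 0.00170). Without UVB-irradiated female 2 or non-irradiated female 4 the female value was -0.96 or -0.97, past the adjusted p but inside the fold threshold.

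*Mmp2* encodes gelatinase A, the gelatinase made in resting dermis, and *Mmp14* the membrane-bound enzyme that activates it. *Mmp2* was at 656, 639, 747 and 830.4 CPM in non-irradiated males and 527, 552, 643 and 639 CPM in UVB-irradiated males, ranges that overlapped between 639 and 643. Its log2FC in males was -0.26 (SE 0.101, adjusted p in edgeR = 0.0482), a call that was lost in 4 of 8 fits that each left out 1 sample: without UVB-irradiated male 1 (adjusted p = 0.138) or 2 (0.112), and without non-irradiated male 3 (0.113) or 4 (0.141). In females *Mmp2* was at 496, 369.9, 345 and 427 CPM without UVB and 416, 515, 425 and 495 CPM after UVB. These groups overlapped, with a log2FC of 0.18 (SE 0.130, adjusted p = 0.377). *Mmp14* overlapped in both sexes, with log2FC values of 0.02 in males (0.0940, adjusted p in edgeR = 0.842) and -0.12 in females (0.181, adjusted p = 0.709). The interval of 2 SE around the *Mmp14* value ran from -0.16 to 0.21 in males and from -0.48 to 0.25 in females.

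*Timp1*, which binds pro-MMP9 and inhibits most secreted metalloproteinases, had the highest log2FC of the 9 members tested in either sex (GRCm39 chrX:20736316-20740976). It was at 3.96, 5.52, 5.45 and 5.44 CPM in non-irradiated males and at 15.96, 16.003, 12.2 and 14.5 CPM in UVB-irradiated males. In females it was at 2.47, 1.82, 2.68 and 2.37 CPM without UVB and at 3.55, 7.46, 4.88 and 6.50 CPM after UVB. The groups were apart in both sexes, and the irradiated females overlapped with the non-irradiated males. *Timp1* rose 2.92-fold in males (log2 1.55, SE 0.131, adjusted p in edgeR = 5.07e-06) and 2.42-fold in females (log2 1.27, 0.233, adjusted p = 0.00557).

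*Timp2* and *Timp3*, the abundant inhibitors, did not follow *Timp1*. *Timp2* was at 1188, 1143, 1227 and 1324 CPM in non-irradiated males and 642, 698, 811 and 877 CPM in UVB-irradiated males, with no overlap. It fell in males by 0.67 (log2) (SE 0.102, adjusted p in edgeR = 0.000264). In females *Timp2* was at 833, 765, 724 and 1004 CPM without UVB and 752, 728, 648 and 784 CPM after UVB, which overlapped, at a log2FC of -0.18 (0.124, adjusted p in edgeR = 0.350). *Timp3*, a matrix-bound inhibitor that also blocks ADAM proteases, was at 517, 528, 527 and 526 CPM in non-irradiated males and 345, 355, 394 and 447 CPM in UVB-irradiated males. Non-irradiated females held *Timp3* at 569, 582, 798 and 799.9 CPM and UVB-irradiated females at 539.9, 487, 505 and 558 CPM. The groups did not overlap in either sex, though in females the gap was only from 558 to 569. *Timp3* fell in males by 0.42 (log2) (SE 0.0818, adjusted p in edgeR = 0.00122). The female log2FC of *Timp3* was -0.39 (0.136, adjusted p in edgeR = 0.0796), and it passed the threshold in 2 of 8 fits that left out 1 sample, with an adjusted p of up to 0.179 without non-irradiated female 4. The call was lost without any of the irradiated females or of non-irradiated females 3 and 4, and remained without non-irradiated females 1 or 2.

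The collagenase and stromelysin genes of chromosome 9 are described singly, and their responses were not tested against each other. *Mmp3*, stromelysin 1, was at 169, 171, 131 and 197 CPM in non-irradiated males and 131, 182, 157 and 183 CPM in UVB-irradiated males, overlapping almost fully (log2FC -0.01, SE 0.134, adjusted p in edgeR = 0.954). In females *Mmp3* was at 41.2, 44.0, 45.0 and 48.2 CPM without UVB and 60.5, 97.0, 63.5 and 54.3 CPM after UVB. All irradiated females lay above all non-irradiated females, and *Mmp3* rose 1.55-fold in females (log2 0.64, 0.165, adjusted p in edgeR = 0.0290). UVB-irradiated female 2 was the highest of them, and without it the log2FC of *Mmp3* was 0.42, still past the threshold (adjusted p = 0.0102). Irradiated females stayed below every male sample for *Mmp3*.

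*Mmp12*, the macrophage metalloelastase, overlapped within each sex. Non-irradiated males were at 8.80, 3.63, 8.91 and 14.6 CPM and UVB-irradiated males at 9.24, 10.2, 7.76 and 7.24 CPM. For females the *Mmp12* values were 15.7, 7.20, 4.35 and 3.58 CPM without UVB and 9.36, 13.3, 9.76 and 7.62 CPM after UVB. The non-irradiated samples spread over a wider range than the irradiated ones in both sexes. Log2FC values of *Mmp12* were -0.03 in males (SE 0.342, adjusted p in edgeR = 0.957) and 0.39 in females (0.409, adjusted p = 0.566). Non-irradiated female 1, the highest sample, decided the female value: without it the log2FC was 0.99 and past the threshold (adjusted p in edgeR = 0.0342).

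*Mmp13*, the main interstitial collagenase of rodents, was scarce, with 4 to 50 reads per sample. It was at 0.233, 0.414, 0.303 and 0.974 CPM in non-irradiated males and 0.778, 1.47, 1.64 and 0.573 CPM in UVB-irradiated males. In females *Mmp13* was at 0.692, 0.594, 0.981 and 2.52 CPM without UVB and 0.206, 0.720, 0.385 and 0.557 CPM after UVB. The groups overlapped in both sexes, and the single highest sample was non-irradiated female 4. The male log2FC was 1.24 (SE 0.469, adjusted p in edgeR = 0.0442) and the female one -1.26 (0.523, adjusted p = 0.134), or -1.49 and past the threshold without non-irradiated female 2 (0.0979) and -0.66 without non-irradiated female 4. DESeq2 passed the female difference of *Mmp13* (-1.33, adjusted p = 0.0702), as did edgeR with all 16 samples in 1 fit (-1.27, adjusted p = 0.0969). With apeglm shrinkage the *Mmp13* values were 0.80 in males, under the fold threshold, and -0.28 in females. The male call for *Mmp13* was lost without UVB-irradiated male 2 (adjusted p = 0.103) or 3 (0.126), and without non-irradiated male 1 (0.111) or 3 (0.102).

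*Mmp10*, stromelysin 2, had 36 reads in all 16 libraries. Its reads per sample were 0, 0, 1 and 1 in non-irradiated males, 11, 1, 1 and 4 in UVB-irradiated males, 1, 2, 0 and 2 in non-irradiated females and 2, 3, 3 and 4 in UVB-irradiated females. At this depth a count of 0 allows up to 3 reads, so only UVB-irradiated males 1 and 4 and UVB-irradiated female 4 were above that limit, and no fold change is given.

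**Figure D3:**
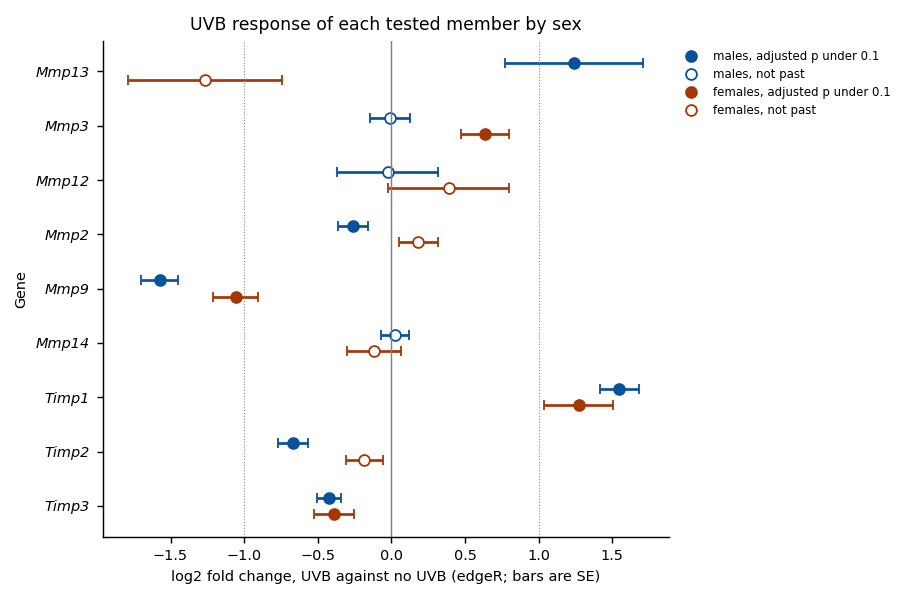
Log2 fold change of UVB against no UVB from edgeR for the 9 members tested, in males and females, with SEs; filled points passed an adjusted p of 0.1 and dotted lines mark a log2FC of 1 in either direction. *Timp1* is to the right and *Mmp9* to the left in both sexes, and *Mmp13* is on opposite sides.

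Whether the response differed between the sexes was tested as the interaction of UVB and sex over all 16 samples. *Mmp13* was the only member past the threshold in this fit, with a difference of 2.49 on the log2 scale, males minus females (SE 0.763, adjusted p in edgeR = 0.0841). By the same rule 2.75% of all genes tested were higher in males and 4.25% lower. The *Mmp13* call was lost in 9 of 16 fits that left out 1 sample, with adjusted p from 0.106 to 0.165, namely without any of UVB-irradiated males 1 to 3, non-irradiated males 1 to 3, UVB-irradiated female 1 or non-irradiated females 3 and 4. Without non-irradiated female 4 the difference was 1.90, and with every gene of at least 1 count in the fit the call was lost too (adjusted p = 0.152). For *Timp2* the difference in response was -0.50 (0.163, adjusted p = 0.101), which passed without UVB-irradiated female 3 (0.0745), non-irradiated female 4 (0.0433) or UVB-irradiated male 4 (0.0665). *Timp2* also passed with upper quartile scaling (0.0918), DESeq2 (0.0435), every gene of at least 1 count (0.0756) and at least 10 counts in every sample (0.0934), and not with DESeq2 size factors in edgeR or counts of both strands. For *Mmp3* it was -0.66 (0.231, adjusted p = 0.122), which passed without UVB-irradiated female 4 (0.0846) or non-irradiated male 3 (0.0667), and with DESeq2 (0.0701). *Mmp9* differed by -0.53 (SE 0.210, adjusted p in edgeR = 0.164) and *Mmp2* by -0.46 (0.172, adjusted p = 0.142; 0.0760 without non-irradiated female 1). *Mmp12* differed by -0.43 (0.597, adjusted p = 0.724) and *Mmp14* by 0.13 (0.219, adjusted p = 0.780). For *Timp1* and *Timp3* the differences were 0.26 (0.276, adjusted p = 0.627) and -0.05 (0.161, adjusted p = 0.892), with intervals of 2 SE from -0.29 to 0.81 and from -0.37 to 0.27.

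Non-irradiated skin already differed between the sexes in most members. *Mmp3* was 3.75-fold higher in males, with a log2 difference of 1.91 (SE 0.168, adjusted p in edgeR = 4.37e-06). *Timp1* was 2.17-fold higher (log2 1.12, 0.205, adjusted p = 0.00293), *Mmp2* 1.75-fold (0.81, 0.122, adjusted p = 0.000557), *Mmp14* 1.503-fold (0.59, 0.155, adjusted p = 0.0298) and *Timp2* 1.47-fold (0.55, 0.115, adjusted p = 0.00699) by the same edgeR test. *Timp3* was lower in males, by -0.39 (0.114, adjusted p in edgeR = 0.0463). So 5 members were higher and 1 lower of 9 tested, where 7.21% of all genes tested were higher in males and 4.58% lower. The sexes did not overlap in *Mmp2*, *Mmp3*, *Timp1*, *Timp2* or *Timp3*, but overlapped in *Mmp14*, where non-irradiated female 1 at 292 CPM exceeded non-irradiated male 2 at 289 CPM. No share of all genes without overlap was computed to set beside this. *Mmp9* differed by 0.01 (0.142, adjusted p in edgeR = 0.988), within -0.28 to 0.29. *Mmp12* and *Mmp13* differed by 0.21 (0.424, adjusted p = 0.839) and -1.32 (0.540, adjusted p = 0.154), the latter -1.87 without non-irradiated male 4 (0.0793). The *Mmp14* call was lost without non-irradiated female 2 (adjusted p = 0.103) and that of *Timp3* without non-irradiated female 3 (0.107) or non-irradiated males 1 and 2 (0.105 each).

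After UVB, 4 members were higher and 2 lower in males of 9 tested, where 12.8% of all genes tested were higher in males and 12.5% lower. *Timp1* was 2.60-fold higher in males (log2 1.38, SE 0.183, adjusted p in edgeR = 0.000225) and *Mmp3* 2.37-fold (1.24, 0.165, adjusted p = 0.000292). *Mmp14* was 1.64-fold higher (0.72, 0.156, adjusted p = 0.00689) and *Mmp2* 1.28-fold (0.35, 0.122, adjusted p = 0.0560). *Mmp9* and *Timp3* were lower in males, by -0.52 (0.155, adjusted p in edgeR = 0.0295) and -0.44 (0.114, adjusted p = 0.0157). For *Timp2* the log2 difference was 0.06 (0.115, adjusted p = 0.773), within -0.17 to 0.29. *Mmp12* differed by -0.22 (0.420, adjusted p = 0.756) and *Mmp13* by 1.17 (0.538, adjusted p = 0.146, or 0.0789 without non-irradiated female 4). The *Mmp13* difference also passed with DESeq2 (1.24, adjusted p = 0.0932). Groups did not overlap for the 6 members past the test. The share of all genes without overlap was not computed, so this count is no result about the members. The *Mmp2* call was lost without UVB-irradiated female 1 (adjusted p = 0.170) or 3 (0.117), and without UVB-irradiated male 3 (0.139) or 4 (0.124).

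**Figure D4:**
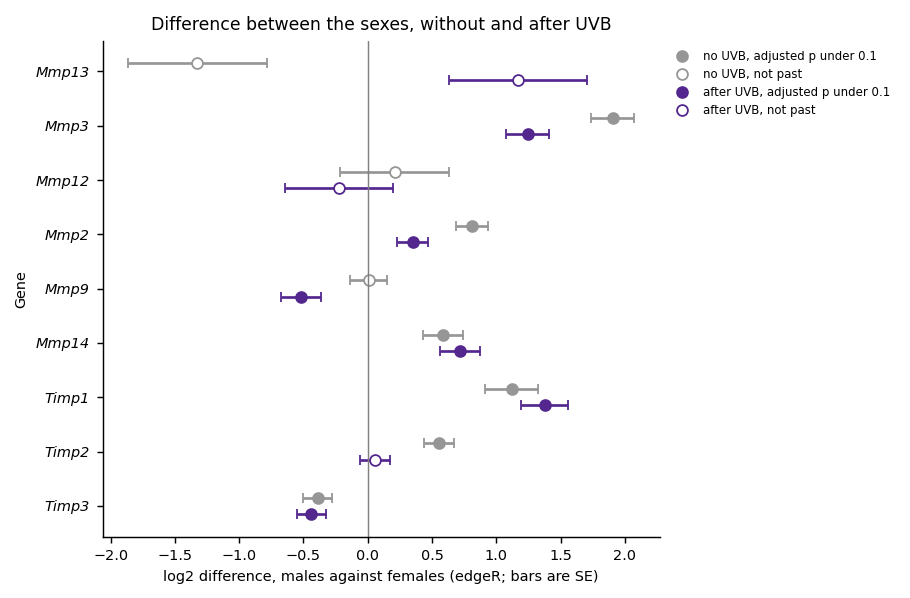
Log2 difference of males against females from edgeR for the 9 members tested, without and after UVB, with SEs; filled points passed an adjusted p of 0.1. *Mmp3* and *Timp1* are higher in males in both conditions, and *Timp3* is lower.

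The sum of the 7 metalloproteinases against the sum of the 3 inhibitors, in CPM per kb, describes the transcript balance. In males this ratio was 0.981 to 1.06 without UVB and 1.22 to 1.51 after UVB. In females it was 0.569 to 0.866 without UVB and 0.727 to 1.01 after UVB. The ranges were apart in males and overlapped in females. In males the enzyme sum was 415 to 499.5 CPM per kb without UVB and 348 to 419 after UVB, and the inhibitor sum was 423 to 471 and 261 to 344. *Timp2* made up 52.9 to 75.1% of the inhibitor sum and *Mmp2* 42.5 to 58.9% of the enzyme sum over all samples, so both sums follow the abundant genes. *Timp1* made up 0.576 to 1.39% of the inhibitor sum without UVB and 1.19 to 6.52% after UVB. Per kb, *Timp1* stood at 0.461 to 0.933 of *Mmp9* in non-irradiated males and 4.63 to 7.53 times *Mmp9* in UVB-irradiated males. In females this ratio was 0.271 to 0.408 without UVB and 1.04 to 2.70 after UVB. These ratios are of transcripts and say nothing of protein or of enzyme activity, and no test was made of them.

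For the 3 members called with the fold threshold, the genes with the closest pattern over the 16 samples were found by the root mean square difference of centred log2 CPM. *Mmp9* was nearest to *D7Ertd443e* (0.191), *Trpm3* (0.194) and *Ctnnd2* (0.203). *Timp1* was nearest to *Avpi1* (0.373), *AI506816* (0.398) and *Tent5b* (0.428). *Mmp13* was nearest to *Trem2* (0.495), *Adamts4* (0.594) and *Ccr1* (0.598), distances larger than those of the other 2. In the response to UVB, *Avpi1* had a log2FC of 1.67 in males and 1.13 in females, beside 1.55 and 1.27 for *Timp1*. This likeness follows from how *Avpi1* was picked and is no further result.

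Of the other metalloproteinases and *Timp4*, 11 of 17 genes were tested in males, and 3 rose and 5 fell, with a median log2FC of -0.39 against -0.02 over all genes. The share that rose was near the 29.0% of all genes that were higher in males, where 30.5% were lower. In females 2 of 10 rose and 3 fell, with a median of -0.23 against 0.00, where 12.8% of all genes were higher and 10.6% lower. *Mmp11*, stromelysin 3, rose in males by 1.32 (log2) (SE 0.286, adjusted p in edgeR = 0.00494), from 7.12 to 12.6 CPM without UVB to 17.1 to 34.7 CPM after UVB, a call that was lost with all 16 samples in 1 fit (adjusted p = 0.155). The *Mmp11* value in females rested on 1 sample, non-irradiated female 1 at 134 CPM, in a group with a median of 14.996 and a lowest value of 8.86 CPM. With it the female log2FC was -0.68 (adjusted p in edgeR = 0.619), and without it 1.05 and past the threshold (adjusted p = 0.0267). *Mmp25*, a membrane-anchored enzyme of leukocytes, rose in males by 1.03 (0.170, adjusted p in edgeR = 0.000439) and in females by 0.54 (adjusted p = 0.0718). Of 8 female fits that left out 1 sample, 2 kept *Mmp25* past the threshold, with log2FC from 0.39 to 0.64 and adjusted p up to 0.180, and with the replicate block it was lost (0.127). *Mmp23* and *Mmp27* fell in males by 0.88 (0.0936, adjusted p in edgeR = 2.35e-05) and 0.83 (0.123, adjusted p = 0.000272), and in females their log2FC values were -0.06 (adjusted p = 0.816) and -0.12 (adjusted p = 0.462). *Mmp1a*, a neighbour of *Mmp3*, had no reads in any sample.

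Of the genes that activate or restrain metalloproteinases, 4 of 13 tested rose and 6 fell in males, and 2 of 13 rose and 3 fell in females. Beside the 29.0% higher and 30.5% lower over all genes in males, and 12.8% and 10.6% in females, the shares that rose were near background in both sexes. *Lcn2*, whose product binds MMP9, rose by 1.78 in males (SE 0.202, adjusted p in edgeR = 5.95e-05) and by 1.46 in females (0.189, adjusted p = 0.000857). *Reck*, a membrane-anchored inhibitor of metalloproteinases, fell in males by 0.65 (0.192, adjusted p in edgeR = 0.0197), a call that was lost with every gene of at least 1 count in the fit (0.104).

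Among 13 Adam and Adamts proteases, 4 rose and 5 fell in males and 4 fell in females. In males both shares were near those of all genes, 29.0% higher and 30.5% lower, and in females 10.6% of all genes were lower. *Adamts4*, an aggrecanase, rose in males by 1.05 (SE 0.286, adjusted p in edgeR = 0.00968). *Adamts2*, which trims procollagen I, fell in males by 0.62 (0.0840, adjusted p in edgeR = 0.000115).

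Matrix genes, whose products these enzymes cut, were mostly lower in males, while most did not pass the test in females. Of 20 tested, 2 rose and 13 fell in males, with a median log2FC of -0.37, and 1 rose and 3 fell in females, with a median of -0.32. Over all genes 30.5% were lower in males and 10.6% in females. *Col1a1* and *Col1a2*, the chains of collagen I, fell in males by 1.66 (SE 0.152, adjusted p in edgeR = 8.37e-06) and 1.57 (0.157, adjusted p = 1.46e-05). In females their log2FC values were -0.42 (adjusted p in edgeR = 0.194) and -0.36 (0.209). Without UVB-irradiated female 2 both passed in females, at -0.60 (adjusted p in edgeR = 0.0583) and -0.49 (0.0842), so the female count turned on that sample. *Tnc*, tenascin C, rose in males by 1.68 (0.295, adjusted p in edgeR = 0.00209).

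Among the AP-1 subunits and cytokines that act on these genes, 6 of 15 tested rose and 2 fell in males, where 29.0% and 30.5% of all genes did, and 4 rose in females, where 12.8% did. *Fosl1*, an AP-1 subunit, rose by 1.73 in males (SE 0.242, adjusted p in edgeR = 0.000164) and 1.28 in females (0.331, adjusted p = 0.0272), the latter lost when reads of both strands were counted (0.154). *Il1b* rose by 1.61 in males (0.215, adjusted p in edgeR = 0.000127) and 1.03 in females (0.229, adjusted p = 0.0142). *Fos* fell in males by 2.87 (0.808, adjusted p in edgeR = 0.0228), where non-irradiated males ran from 27.2 to 250.2 CPM. Mean *Fos* was 115 CPM in non-irradiated males, 15.6 CPM in UVB-irradiated males, 13.97 CPM in non-irradiated females and 15.6 CPM in UVB-irradiated females. So the male fall rested on high and scattered non-irradiated males, and why they were high was not tested. Without non-irradiated male 2 the male log2FC of *Fos* was -2.15, still past the threshold.

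**Figure D5:**
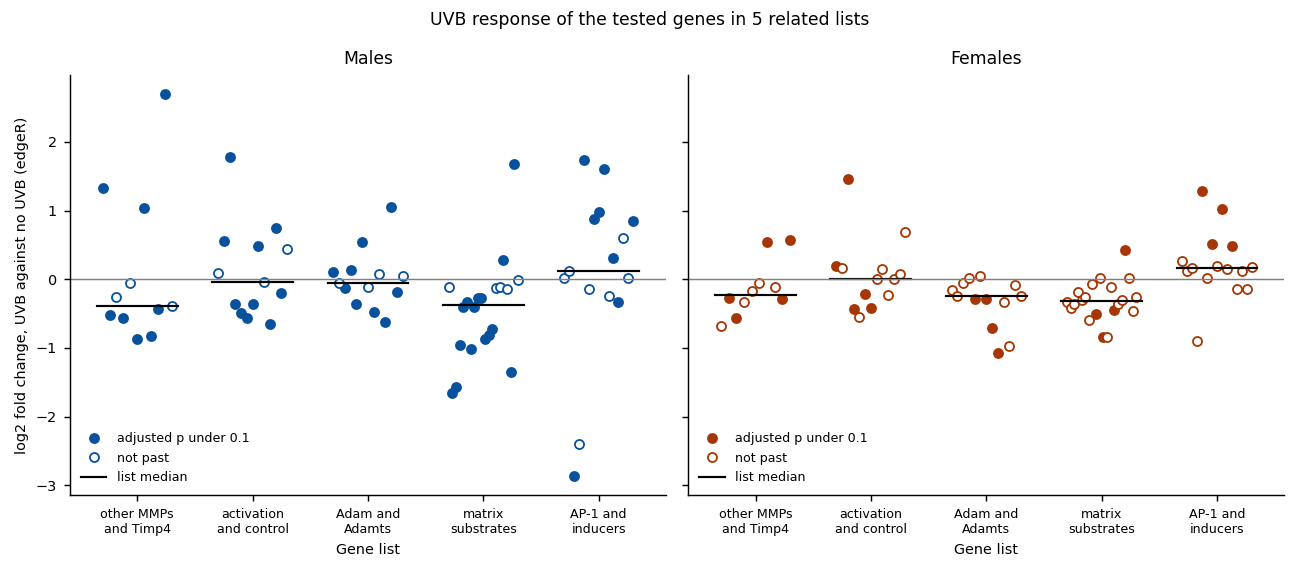
Log2 fold change of UVB against no UVB for each tested gene of 5 related lists, in males and females; filled points passed an adjusted p of 0.1 and the black line is the list median. The medians of the matrix genes are below 0 in both sexes, -0.37 and -0.32.

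Levels of some cell type markers differed between the groups as well, mostly in males. The counts of markers below are to be read beside the 29.0% of all genes that were higher and 30.5% lower in males after UVB, and the 12.8% and 10.6% in females. The summed level of 10 fibroblast markers was 60911 to 66409 CPM in non-irradiated males and 19872 to 28407 CPM in UVB-irradiated males, with 8 of 10 lower. In females that sum was 15055 to 15447 CPM without UVB and 10315 to 15021 CPM after UVB, with 1 lower and 1 higher. *Col1a1* and *Col1a2*, also counted among the matrix genes, made up most of this sum, with means of 29585 and 29246 CPM in non-irradiated males. Of 10 keratinocyte markers, 7 were higher and 1 lower in males (11539 to 16915 CPM without UVB, 24069 to 34227 CPM after UVB), and 3 were higher and 1 lower in females. Of 11 macrophage and monocyte markers, 2 were higher and 5 lower in males and 1 was lower in females, in males close to those shares, and their sum was 2046 to 2691 CPM in non-irradiated males and 1700 to 2232 CPM in UVB-irradiated males. Neutrophil markers summed to 10.8 to 16.04 CPM in non-irradiated males and 54.5 to 161 CPM in UVB-irradiated males, and to 10.6 to 16.6 and 20.5 to 30.6 CPM in females, with 5 of 6 tested higher in males and 2 of 5 in females. *S100a8* and *S100a9*, which encode calprotectin, held most of this sum after UVB in males, with means of 26.7 and 39.8 CPM against 2.09 and 1.72 CPM without UVB, and *Mmp8* is also one of the other metalloproteinases above. *Retnlg* did not pass (means of 2.26 CPM without and 1.48 CPM after UVB in males), and *Elane* and *Mpo* averaged 0.273 and 0.260 CPM in UVB-irradiated males, too low for the test. *Ly6g*, a defining neutrophil marker, had at most 1 read in any sample, and *Ngp* at most 1 outside the irradiated females. Of 8 T cell markers, among them *Thy1* of the fibroblast list, 7 were lower and 1 higher in males and 3 lower in females. Of 6 Langerhans cell markers, added after seeing the data, 5 were lower and 1 higher in males. Of 6 skeletal muscle markers 5 were lower in males, of 6 adipocyte markers 3 were lower in males and 1 higher in females, and of 6 melanocyte markers 3 were higher and 1 lower in males and 1 lower in females. With 6 markers each, the adipocyte and melanocyte counts are not set apart from the shares over all genes. Non-irradiated female 1, which also decided the female *Mmp11* and *Mmp12* values, held *Dct* at 38.9 and *Tyrp1* at 35.9 CPM. The medians of its group were 15.7 and 11.9 CPM, and the cause was not tested. The 6 endothelial markers did not pass the test in either sex, and their sum was 335 to 515 CPM over all samples. Between the sexes after UVB, 7 of 10 keratinocyte markers and 4 of 6 neutrophil markers were higher in males, and 6 of 6 adipocyte, 5 of 8 T cell and 5 of 6 Langerhans cell markers were lower, with 2 fibroblast markers higher and 1 lower of 10 and 1 macrophage, 1 endothelial and 1 skeletal muscle marker lower, where 12.8% of all genes were higher and 12.5% lower. Between the sexes without UVB, 3 of 10 fibroblast and 3 of 6 skeletal muscle markers were higher in males, and 2 of 8 T cell, 2 of 11 macrophage and 1 of 6 endothelial markers were lower, with 1 melanocyte marker higher and 2 lower of 6, where 7.21% of all genes were higher and 4.58% lower. The part of these cell types in the differences of the members, after UVB or between the sexes, was not tested, and in whole skin fewer cells of a type and less RNA per cell cannot be told apart.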

How the data were processed

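Whole dorsal skin was profiled by directional poly(A) RNA sequencing in 16 samples, 4 per group. The authors aligned the reads with STAR and deposited, per sample, whole-number counts of reads per gene for either strand and for both. The strand of the directional kit was used here, and 16495776 to 33404831 reads per sample fell on genes, while reads unmapped, outside genes or ambiguous were left out (10.1 to 16.4%, 8.30 to 13.7% and 1.17 to 1.34%). Gene names came from GENCODE M39, which matched 54749 of 55359 identifiers, and no samples were duplicates.

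Counts were tested with edgeR 4.0.16 in R 4.3.3 (filterByExpr, TMM, robust quasi-likelihood), with Benjamini-Hochberg adjustment over 16535 genes in males, 16883 in females and 17406 in all samples. UVB responses were fitted within each sex on 8 samples, and the interaction and sex differences over 16. The thresholds were an adjusted p of 0.1 and, where stated, an absolute log2 fold change of 1. CPM were computed with TMM library sizes, and CPM per kb divides by the canonical transcript. The fit was also run on simulated counts with a common spread for all genes and large changes in well-counted genes. That run does not cover scarce members or small changes.

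The members and lists were chosen with earlier results of these data known. All members were described. 1 gene of the list of activators and inhibitors is not reported here and was left out of its counts. From each related list at most 4 genes were eligible to be named, those with the largest absolute log2 fold change past the threshold and at least 1 CPM. *Mmp1a* was named as a neighbour of *Mmp3*, and the 3 tested genes nearest in pattern were named for each member called with the fold threshold. Alternatives were DESeq2 1.42.0 with and without apeglm 1.24.0, other scalings, filters, strands and a replicate block, and leaving out each sample.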

Additional observations from a re-analysis of the deposited data

Results flagged for a closer look

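Among 40 groups of 4 values, 10 members in 4 groups, 2 had a sample far from the others, close to the 1 in 20 that chance gives. *Timp1* in non-irradiated male 1 was at 3.96 CPM, where the other 3 were at 5.44 to 5.52 CPM. *Timp3* in the same sample was at 517 CPM, where the other 3 lay at 526 to 528 CPM.

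The response to UVB differed between the sexes, by the edgeR interaction test, for *Mmp13* by 2.49 on the log2 scale, males minus females (adjusted p = 0.0841). In the related lists the difference was -0.83 for *Mmp23* (adjusted p = 0.0216) and -0.72 for *Mmp27* (adjusted p = 0.0355). It was -0.36 for *Pcsk6*, a proprotein convertase (adjusted p = 0.0511, past in 12 of 16 fits leaving out 1 sample), 2.01 for *Adamts4* (adjusted p = 0.0593, past in 12 of 16) and 2.13 for *Tnc* (adjusted p = 0.0355, past in 16 of 16). For *Col1a1*, *Col1a2* and *Sparc*, a collagen-binding matrix protein, it was -1.25 (adjusted p = 0.0216), -1.23 (adjusted p = 0.0168) and -1.38 (adjusted p = 0.00739). For *Fos* it was -3.05 (adjusted p = 0.0654, past in 9 of 16), or -2.34 without non-irradiated male 2. Mean *Fos* was 115 CPM in non-irradiated males and 13.97 to 15.6 CPM in the other groups. The *Adamts4*, *Mmp13* and *Fos* calls were also lost with every gene of at least 1 count in the fit. Apart from leaving out samples, the *Fos* interaction passed in 5 of 7 other settings.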

How the results depend on the processing

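Single results of the members kept their direction and side of the threshold 834 times over the alternatives, turned 33 times, newly passed 22 times and no longer passed 32 times. The count of members in the interaction, 1, was 0 at an adjusted p of 0.05, 2 under upper quartile scaling or DESeq2, 3 with the replicate block and 0 to 2 when a sample was left out. The members differed: upper quartile scaling passed *Mmp13* and *Timp2*, DESeq2 passed *Timp2* and *Mmp3* and gave no adjusted p for *Mmp13*, and with every gene of at least 1 count or at least 10 counts in every sample *Timp2* passed and *Mmp13* was past the threshold in neither. Females called, 2, ranged from 1 to 3 when a sample was left out. Males called, 3, were 2 with at least 10 counts in every sample, which drops *Mmp13*, 2 with apeglm, where its log2 fold change was 0.80, and 4 with every gene of at least 1 count, which adds *Mmp10*.

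Values near 0 turned, none past the threshold. *Mmp3* in males was 0.010 with every gene of at least 1 count and -0.096 to 0.085 leaving out samples. The *Mmp9* sex difference without UVB was -0.0036 ignoring strand, -0.0020 with DESeq2 size factors, -0.014 with upper quartile scaling, -0.0026 with DESeq2, -0.0031 with every gene, -0.00031 with at least 10 counts, and -0.076 to 0.10 leaving out samples. *Mmp12* in males was 0.057 with the replicate block, and *Mmp14* in males -0.053 with upper quartile scaling. Leaving out samples gave -0.28 to 0.29 for *Mmp12* in males and -0.11 to 0.81 for its sex difference without UVB. It gave -0.062 to 0.085 for *Mmp14* in males, -0.22 to 0.084 in females and -0.077 to 0.25 in the interaction. It gave -0.022 to 0.13 for the *Timp2* sex difference after UVB and -0.13 to 0.036 for the *Timp3* interaction. The causes were not tested.

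Samples with the same number did not deviate together (r from -0.07 to 0.02 in males and -0.11 to 0.22 in females), so the replicate block pairs by number alone. With it *Timp2* (adjusted p = 0.0532) and *Mmp3* (0.0951) also passed the edgeR interaction test, *Mmp13* passed in the sex difference after UVB (1.29, 0.0817), and the *Fos* call in males was lost (0.149). Depth limits *Mmp10* and *Mmp13*, and 4 samples per group limit every small difference.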
